A study of Mus musculus with 6 samples.

Results

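The genes described here encode the subunits of the oxidative phosphorylation machinery, complexes I to V of the inner mitochondrial membrane. They were picked by name among the probe sets that the array annotation pairs with exactly 1 gene symbol: symbols beginning Ndufa, Ndufb, Ndufc, Ndufs or Ndufv for complex I, the 4 Sdh genes for complex II, Uqcr symbols and *Cyc1* for complex III, symbols beginning Cox4 to Cox8 for complex IV, and symbols beginning Atp5 for complex V. The 7 Ndufaf genes, which encode assembly factors, were left out, and the brightest probe set stood for a gene. This gave 83 genes of the 19938 measured, with 36 in complex I, 4 in complex II, 9 in complex III, 17 in complex IV and 17 in complex V. No measured value entered this rule beyond the brightness of probe sets of the same gene. The list itself was chosen with earlier results of these data known. *Ndufb1* and *Ndufb4c*, and *Cox7c*, *Ndufb4* and *Ndufb4b*, whose probe sets carry several symbols, were not analysed here.

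RNA was measured in whole lungs of mouse embryos at E18.5, 3 *Tnrc6a* null and 3 WT littermates, on an Affymetrix whole-transcript gene array, with 1 embryo for each array. The null embryos were *Tnrc6a* gt/gt, with both copies of *Tnrc6a* disrupted by a gene trap that carries β-galactosidase, and WT embryos carried none; both were on the C57Bl/6 background, reached by backcrossing. TNRC6A (GW182) is a partner of Argonaute proteins in silencing by microRNAs. The trap is carried by every cell of the embryo, and the arrays hold the RNA of the whole organ. In the lung the authors report *Tnrc6a* as selectively expressed in multiciliated cells of the airways.

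Complexes I to IV pass electrons from NADH and succinate to oxygen, and complexes I, III and IV pump protons across the inner membrane. Complex V, the ATP synthase, uses the proton gradient to make ATP. Most of the subunits are encoded in the nucleus, made in the cytosol and imported, while a small set is encoded by mitochondrial DNA. Several complex IV subunits and a few others exist as isoforms from separate genes, of which some are known from muscle, testis or oxygen-poor tissue, and *Cox4i2* is known as the isoform of lung. The transcription factors NRF1 and GABP are known regulators of many of the nuclear genes.

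The labels give the deposited values as log2, but the base could not be settled from the files used here, so each difference is given as null minus WT on the deposited log scale and none is turned into a fold. *Tnrc6a* itself read 5.45, 5.04 and 5.40 in null lungs, against 7.38, 7.13 and 7.18 in WT lungs, a difference of -1.93 (SE 0.128), and it was the only gene of 19938 with an adjusted p under 0.05 (limma with Benjamini-Hochberg, adjusted p = 0.00312). The 10 lung markers examined, *Sftpc* and *Nkx2-1* among them, all lay above the median signal of the array. The 6 arrays correlated with each other at 0.979 to 0.993, and null replicate 3 and WT replicate 1 departed from their genotype means together (correlation of deviations over all genes 0.54), so values without 1 or both of them are given beside the results that they move most.

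None of the 83 subunit genes passed the adjusted threshold in null against WT lungs, where 0.00502% of all genes did, and the smallest adjusted p among them was 0.89 (limma). At an unadjusted p under 0.05, 1 subunit gene was lower in null lungs (1.20%) and 2 were higher (2.41%), against 2.96% and 2.46% of all genes. The gene on the lower side was *Cox7a1*, a complex IV isoform of heart and skeletal muscle, and those on the higher side were *Atp5g2* and *Atp5k*, which encode a c and an e subunit of the ATP synthase. The genotypes did not overlap in 1 gene with null lungs lower (1.20%, *Cox7a1*) and in 3 with null lungs higher (3.61%, *Ndufa4l2*, *Cox6b2* and *Atp5g2*), where 5.51% and 4.67% of all genes did so. With quantile normalization or cyclic loess the split at an unadjusted p under 0.05 was 1 lower and 4 higher (4.82%), where 2.01% and 2.22% of all genes were higher, and with median centring it was 1 and 1. Without null replicate 3 and WT replicate 1, 2 were lower (2.41%) and 7 higher (8.43%), where 8.74% and 5.78% of all genes were, and the smallest adjusted p was 0.131.

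The differences of the subunit genes were small and lay on both sides of 0. Of the 83, 39 were lower on average in null lungs, 43 were higher and 1, *Atp5e*, was level. Their median was 0.01, against 0.00 for all genes, and it turned to -0.03 with median centring, which moved the median of all genes to -0.04. The values ran from -0.33 for *Uqcr11* to 0.29 for *Atp5k*, and 75 of 83 (90.4%) lay within 0.2 of 0, where 80.2% of all genes did. The precision of the design can be read from the intervals. The 95% interval lay within 0.5 of 0 for 71 subunit genes (85.5%) and for 70.6% of all genes, and the median SE was 0.109 against 0.129. At this precision a difference beyond 0.5 lay outside the interval for those 71 genes, and smaller ones were often not detectable with 3 lungs a genotype. In whole lung, fewer cells of a type and less RNA per cell cannot be told apart. Of the 17 subunit genes with several probe sets, 14 had no probe set of the opposite sign, and *Ndufc1*, *Atp5h* and *Atp5pb* had. Many of these genes are known to have processed pseudogenes, and cross-hybridisation of their probes was not tested.

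**Figure D1:**
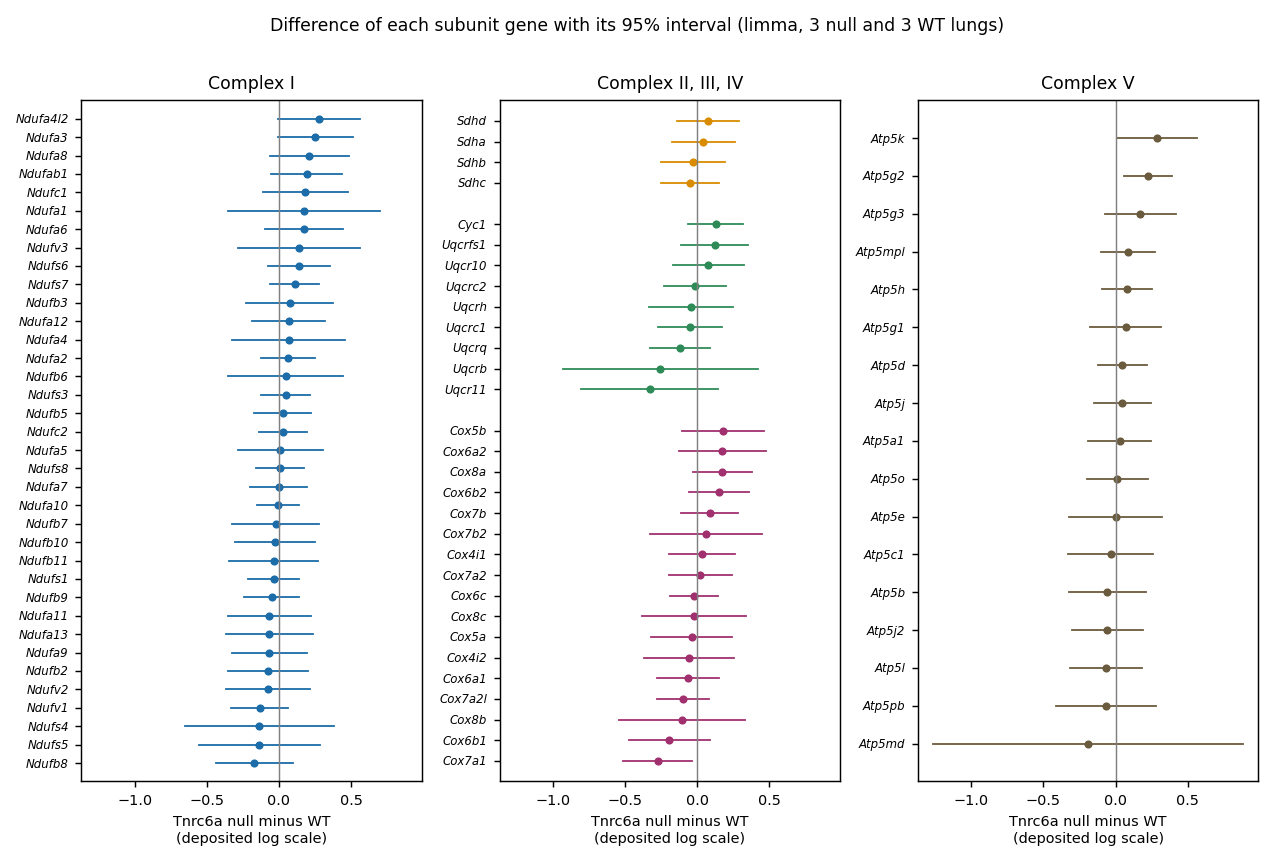
Difference of each of the 83 subunit genes, null minus WT, on the deposited log scale (x axis), with its 95% interval from limma, in panels by complex and in order of the difference. Nearly every interval crosses 0; those of *Cox7a1*, *Atp5g2* and *Atp5k* do not, and that of *Atp5md* is the widest.

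Complex I takes electrons from NADH and hands them to ubiquinone. For its catalytic core, 6 nuclear genes are described. *Ndufv1*, whose protein binds the flavin that accepts electrons from NADH, read 7.54, 7.42 and 7.63 in null lungs, against 7.56, 7.74 and 7.69 in WT lungs, a difference of -0.13 (SE 0.087). The null values reached into the WT range through replicate 3. *Ndufs7*, which encodes an iron-sulfur subunit close to the quinone site, read 10.08, 10.02 and 9.92 in null lungs, against 9.82, 9.95 and 9.92 in WT lungs, a difference of 0.11 (SE 0.075), with WT replicates 2 and 3 among or level with the null values. The other core genes, *Ndufs1*, *Ndufs3*, *Ndufs8* and *Ndufv2*, all of which encode subunits of the peripheral arm, differed by -0.04, 0.05, 0.01 and -0.08. Over the 6, 3 were lower and 3 higher on average, and none had an unadjusted p under 0.05.

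The 30 genes outside this core that were listed with complex I by symbol ran from -0.17 (*Ndufb8*) to 0.28 (*Ndufa4l2*), with a median of 0.03. *Ndufa4l2*, known as a gene induced by hypoxia, read 6.89, 6.92 and 7.06 in null lungs, against 6.41, 6.87 and 6.76 in WT lungs. Each null lung lay above each WT lung, but the lowest null value stood only just above the highest WT value, and WT replicate 1 was far below the other WT lungs. The difference was 0.28 (SE 0.124, unadjusted p = 0.0536, adjusted p = 0.89 by limma), and without WT replicate 1 it was 0.14. *Ndufa3* read 7.84, 7.60 and 8.01 in null lungs, against 7.69, 7.47 and 7.53 in WT lungs, so that WT replicate 1 lay above null replicate 2. *Ndufab1*, which also serves as the acyl carrier protein of mitochondria, read 7.31, 7.12 and 7.26 in null lungs, against 7.24, 6.88 and 6.99 in WT lungs, with the same kind of overlap. Their differences were 0.25 (SE 0.114) and 0.19 (SE 0.108). The median over all 36 genes of complex I was 0.02. With *Ndufa4* and *Ndufa4l2* placed in complex IV instead, it was 0.01 over 34 genes. The median of complex IV was then 0.02 over 19 genes, against -0.02 over its 17.

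Complex II, succinate dehydrogenase, has 4 subunits, all nuclear, and belongs to the tricarboxylic acid cycle as well. Its differences stayed close to 0. They were 0.04 (SE 0.095) for *Sdha*, the flavoprotein that oxidises succinate, -0.03 (SE 0.098) for the iron-sulfur subunit *Sdhb*, and -0.05 (SE 0.089) and 0.07 (SE 0.095) for the membrane anchors *Sdhc* and *Sdhd*. The 95% intervals of all 4 lay within 0.5 of 0.

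Complex III moves electrons from ubiquinol to cytochrome c. *Cyc1*, which encodes cytochrome c1, read 7.64, 7.46 and 7.53 in null lungs, against 7.36, 7.51 and 7.38 in WT lungs, a difference of 0.13 (SE 0.083). *Uqcrfs1*, the Rieske iron-sulfur protein, differed by 0.12 (SE 0.103) and the core protein gene *Uqcrc1* by -0.05 (SE 0.099). The small subunit *Uqcr11* had the lowest difference of all 83 genes, most of it from 1 lung in its brightest probe set. It read 7.63, 7.33 and 6.66 in null lungs, against 7.52, 7.64 and 7.45 in WT lungs, so that null replicate 1 lay inside the WT range, null replicate 2 a little below it and null replicate 3 far below it. The difference of -0.33 (SE 0.210) was -0.06 without null replicate 3 and -0.54 without null replicate 1. The other probe set of *Uqcr11* gave -0.35. It read 6.57, 6.53 and 5.96 in null lungs, against 6.75, 6.72 and 6.64 in WT lungs, without overlap. *Uqcrq* differed by -0.12 (SE 0.091). The median of the 9 genes was -0.04, and it was -0.14 without null replicate 1.

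Complex IV, cytochrome c oxidase, reduces oxygen to water, and 14 of its 17 genes measured belong to subunits that have isoforms. *Cox7a1*, the muscle form of subunit VIIa, read 4.96, 4.77 and 4.98 in null lungs, against 5.17, 5.15 and 5.21 in WT lungs. All 3 null lungs lay below all 3 WT lungs, the WT lungs lay close together, and the difference was -0.27 (SE 0.105, unadjusted p = 0.0296, adjusted p = 0.89 by limma). The gene was below the median signal of the array, and without null replicate 2, its lowest lung, the difference was -0.21 (limma, unadjusted p = 0.115). The limma p was also above 0.05 without WT replicate 1 (0.0526), WT replicate 2 (0.0646) or WT replicate 3 (0.0774). The more widely expressed *Cox7a2* and *Cox7a2l*, whose protein takes part in supercomplexes, differed by 0.02 and -0.10.

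The other isoform genes of complex IV gave differences on both sides of 0. *Cox6b2*, known as a testis isoform, read 5.96, 5.92 and 6.06 in null lungs, against 5.75, 5.86 and 5.88 in WT lungs, with no overlap and a difference of 0.15 (SE 0.090). Its widely expressed counterpart *Cox6b1* read 8.80, 8.63 and 8.28 in null lungs, against 8.77, 8.71 and 8.81 in WT lungs, with null replicate 1 inside the WT range and null replicate 3 far below it. Its difference of -0.19 (SE 0.124) was -0.05 without null replicate 3 and -0.31 without null replicate 1. The lung isoform *Cox4i2* read 8.11, 7.93 and 7.71 in null lungs, against 7.71, 8.14 and 8.07 in WT lungs, and the genotypes covered nearly the same range (difference -0.06, SE 0.137). The common form *Cox4i1* differed by 0.03 (SE 0.102). *Cox8a* gave 8.94, 8.85 and 9.12 in null lungs, against 8.74, 8.75 and 8.90 in WT lungs, a difference of 0.17 (SE 0.090) with 1 WT lung among the null values, and of 0.10 without null replicate 3. The muscle form *Cox6a2* differed by 0.17 (SE 0.133), and by 0.04 without WT replicate 1, its lowest lung. The muscle form *Cox8b* differed by -0.10 (SE 0.192), with the sign turned without null replicate 3 (0.07) or WT replicate 3 (0.04). Among the rest, the common form *Cox6a1* differed by -0.06 and the testis form *Cox8c* by -0.02. *Cox7b* and *Cox7b2*, the pair for subunit VIIb, differed by 0.09 and 0.06. Of the 14 isoform genes, 7 were lower and 7 higher on average, and *Cox7a1* alone had an unadjusted p under 0.05.

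**Figure D2:**
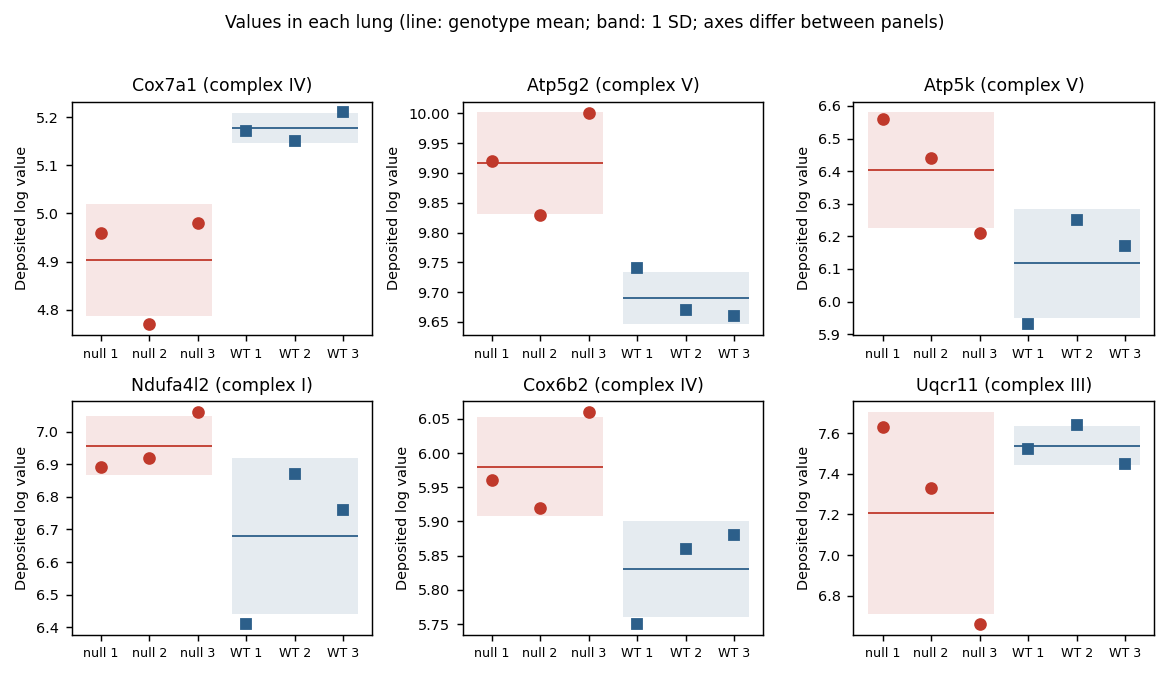
Deposited log values (y axis, a separate range in each panel) of 6 subunit genes in each lung, null lungs as circles to the left of WT lungs as squares, with the genotype mean (line) and 1 SD (band). *Cox7a1* lies lower and *Atp5g2*, *Ndufa4l2* and *Cox6b2* lie higher in every null lung than in any WT lung, while *Atp5k* overlaps and null replicate 3 lies far below the other lungs in *Uqcr11*.

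Complex V makes ATP as protons flow through its ring of c subunits. That c subunit is encoded by *Atp5g1*, *Atp5g2* and *Atp5g3*, which differ in the import sequence and give the same mature protein. *Atp5g2* read 9.92, 9.83 and 10.00 in null lungs, against 9.74, 9.67 and 9.66 in WT lungs. The null lungs lay above the WT lungs without overlap, by 0.23 (SE 0.073, unadjusted p = 0.0131, adjusted p = 0.89 by limma). Its other 2 probe sets, which are not independent samples, gave 0.23 and 0.24. The difference kept its direction under all 17 alternatives tried, between 0.19 and 0.27, with the unadjusted p at 0.051 without WT replicate 2 and under 0.05 in the others. *Atp5g3* read 8.68, 8.50 and 8.92 in null lungs, against 8.55, 8.46 and 8.57 in WT lungs, with overlap and a difference of 0.17 (SE 0.107), which was 0.06 without null replicate 3 and 0.27 without null replicate 2. *Atp5g1* differed by 0.07 (SE 0.109).

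*Atp5k*, the gene of the e subunit in the membrane part of the synthase, read 6.56, 6.44 and 6.21 in null lungs, against 5.93, 6.25 and 6.17 in WT lungs. Null replicate 3 lay between the WT lungs and WT replicate 1 lay apart below. The difference was 0.29 (SE 0.123, unadjusted p = 0.0456, adjusted p = 0.89 by limma). The p was above 0.05 without null replicate 1 (0.161), null replicate 2 (0.107), WT replicate 1 (0.144) or WT replicate 3 (0.0696), and also with median centring (0.0747), eBayes without trend (0.064) or the methods' t-test (0.111). The catalytic head genes *Atp5a1* and *Atp5b*, which encode the alpha and beta subunits, differed by 0.03 (SE 0.096) and -0.06 (SE 0.118). The median over the 17 genes of complex V was 0.03.

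The subunit genes were bright on this array, 75 of 83 above the median signal and 40 in the brightest 10% of genes. Across all genes the median difference ran with signal, at 0.15 in the dimmest 10% and -0.06 in the brightest 10%. The 40 subunit genes of the brightest bin had a median of 0.00, and the 13 of the next bin had 0.06 where all genes there had -0.06. Signal over background was not measured, and the part of signal in these medians was not tested.

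**Figure D3:**
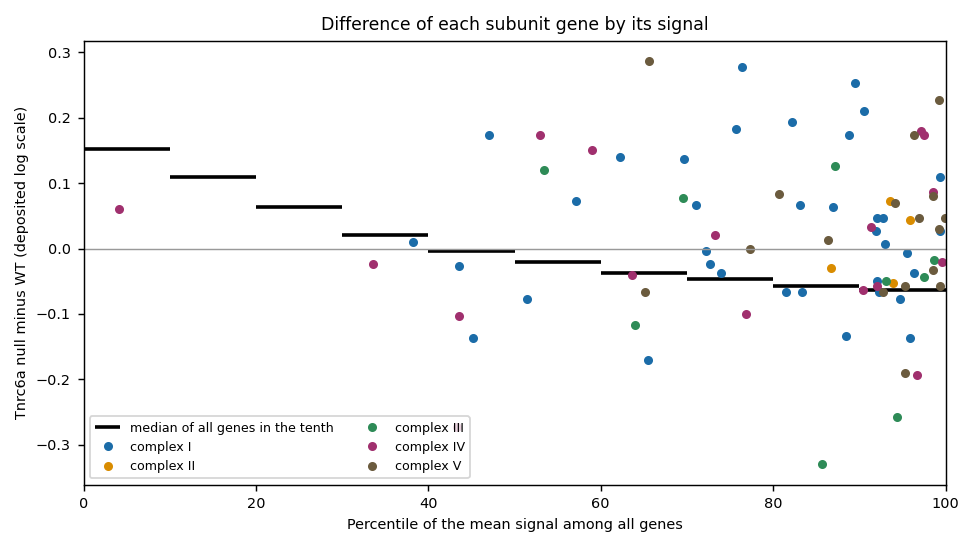
Difference of each subunit gene, null minus WT on the deposited log scale (y axis), against the percentile of its mean signal among all genes (x axis), with the median of all genes in each 10% bin of signal as black bars. The bars run downwards as the signal grows, and the bright subunit genes scatter around 0, above and below the bars.

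Averaged over the 83 genes, single lungs differed by more than the genotypes did. Set against each gene's mean over the 6 lungs, the 83 genes averaged 0.09, -0.06 and 0.00 in null lungs, against 0.00, -0.01 and -0.01 in WT lungs. Null replicate 1 was the highest of the 6 lungs in 28 of the 83 genes (33.7%) and the lowest in 0, where over all genes it was highest in 17.0% and lowest in 16.1%. Null replicate 2 was the highest in 1 gene (1.2%) and the lowest in 20 (24.1%), where over all genes it was highest in 14.4% and lowest in 10.5%. In complex I, null replicate 1 was the highest lung for 18 of 36 genes. The cardiomyocyte markers were highest in the same lung: their 15 genes averaged 0.24, -0.09 and -0.27 in null lungs, against -0.07, 0.02 and 0.17 in WT lungs, and their part in the subunit values was not tested.

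**Figure D4:**
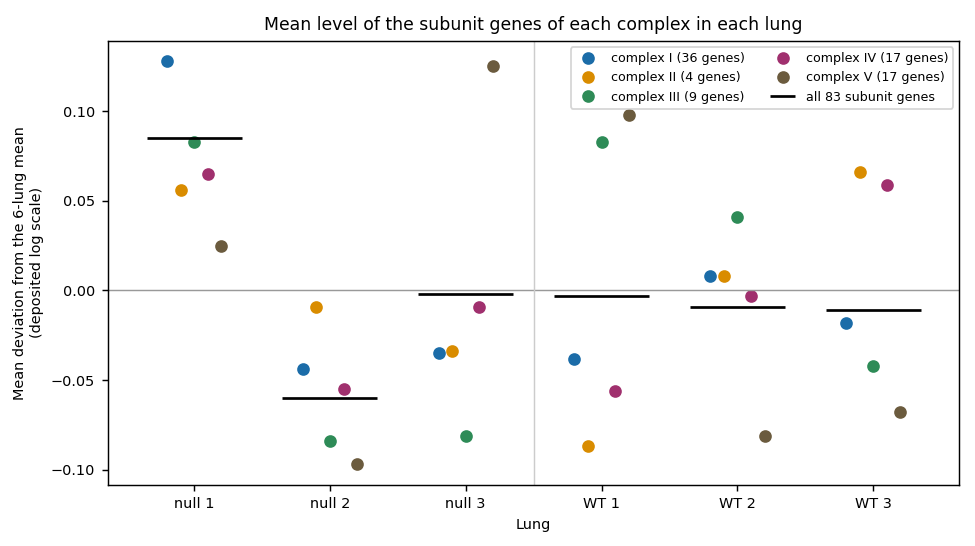
Mean deviation from the 6-lung mean, on the deposited log scale (y axis), of the subunit genes of each complex (coloured points) and of all 83 (black bars) in each lung, null lungs left of WT lungs. Null replicate 1 lies above 0 for all 5 complexes and null replicate 2 below, and complex V is high in null replicate 3 and WT replicate 1.

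Null replicate 3 and WT replicate 1 shared a pattern that ran across the genotypes. Both lay above the other 4 lungs in 17 subunit genes (20.5%) and below them in 16 (19.3%), against 9.04% and 23.2% of all genes. In complex V they lay above in 8 of 17 genes (47.1%), and below in 2. In complex I they lay above in 3 of 36 genes and below in 8, and in complex II above in 1 of 4 and below in 3. *Atp5md*, a small membrane subunit of the ATP synthase, read 8.15, 7.61 and 9.17 in null lungs, against 9.53, 7.99 and 7.98 in WT lungs. The mean of these 2 lungs stood 1.42 above the mean of the other 4, the widest gap of the 83 genes, and all 3 probe sets of the gene showed it. *Uqcrb*, a small subunit of complex III, read 8.16, 7.88 and 8.33 in null lungs, against 9.19, 8.06 and 7.89 in WT lungs. *Ndufb6*, an accessory subunit of complex I, read 7.93, 7.69 and 8.27 in null lungs, against 8.25, 7.68 and 7.82 in WT lungs.

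The opposite order appeared in other members. *Ndufa1*, an accessory gene of complex I, read 5.69, 5.29 and 5.02 in null lungs, against 4.70, 5.54 and 5.24 in WT lungs. *Ndufa4*, listed with complex I by its symbol although its protein is now placed in complex IV, read 7.46, 7.36 and 6.85 in null lungs, against 6.90, 7.20 and 7.37 in WT lungs. *Cox8b* and *Cox4i2* shared this order, with the 2 lungs 0.50 and 0.35 below the other 4 (-0.495 and -0.353). The median SD within a genotype was 0.147 over the 83 genes and 0.154 over all genes, and it ran to 0.844 for *Atp5md*. Among the brightest 10% of genes it was 0.133 over the 40 subunit genes and 0.106 over all genes.

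**Figure D5:**
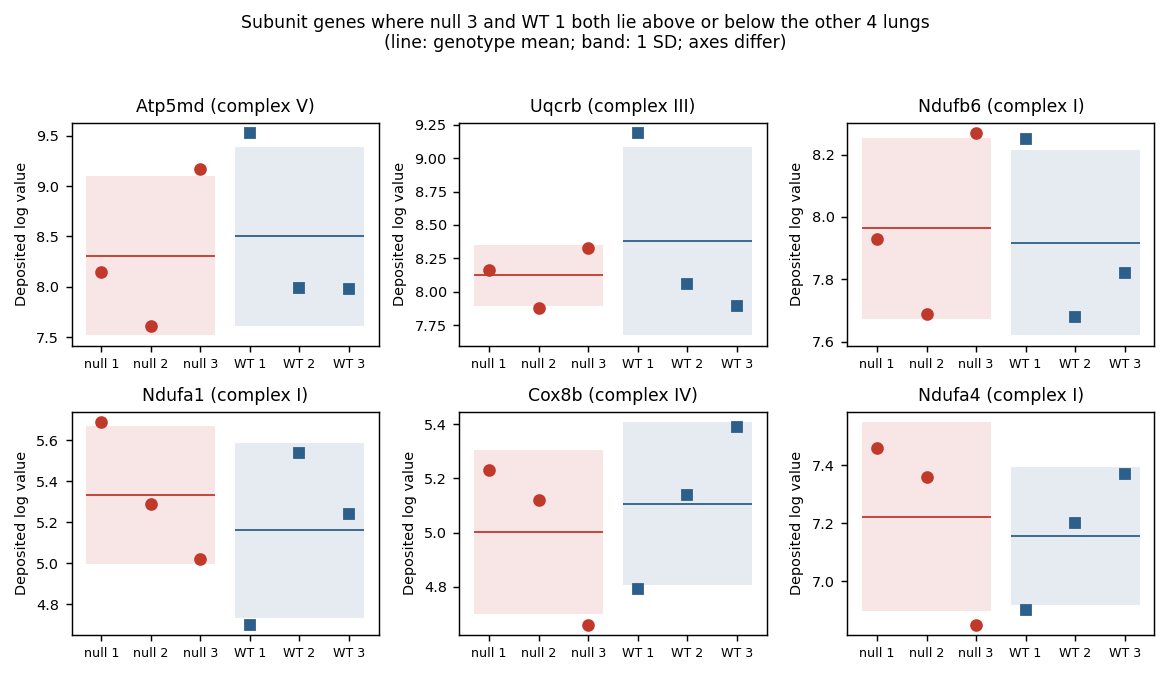
Deposited log values (y axis, a separate range in each panel) of 6 subunit genes in each lung, null lungs as circles to the left of WT lungs as squares, with the genotype mean (line) and 1 SD (band). Null replicate 3 and WT replicate 1 both lie above the other 4 lungs in *Atp5md*, *Uqcrb* and *Ndufb6* and below them in *Ndufa1*, *Cox8b* and *Ndufa4*.

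The subunits encoded by mitochondrial DNA were measured for 2 of 13 genes. COX2, a catalytic subunit of complex IV, read 10.45, 10.22 and 10.76 in null lungs, against 11.03, 10.00 and 9.75 in WT lungs. The difference was 0.22 (SE 0.293), and null replicate 3 and WT replicate 1 were again the 2 highest lungs. ND3, a subunit of complex I, differed by 0.10 (SE 0.104).

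The genes that build or regulate the complexes gave few differences. Of the assembly factors, 14 for complex I, 4 for complex II, 6 for complex III, 17 for complex IV and 5 for complex V were measured, and none had an unadjusted p under 0.05, with list medians of -0.03, 0.01, 0.06, 0.03 and -0.09. The smallest p among them belonged to *Lyrm7*, which helps insert the Rieske protein into complex III, at 0.25 (SE 0.134), followed in that list by *Bcs1l*, which works at the same step, at 0.16. In the other lists the 2 genes with the smallest p were *Ndufaf5* (0.15) and *Ndufaf1* (-0.09) for complex I, *Sdhaf4* (0.20) and *Sdhaf2* (-0.06) for complex II, *Lrpprc* (0.10) and *Coa4* (-0.18) for complex IV, and *Atpaf1* (-0.16) and *Atpaf2* (-0.09) for complex V. Cytochrome c and the genes of ubiquinone synthesis gave 0 of 11 with a median of 0.00; *Pdss2* and *Coq8a* differed by 0.17 and -0.16. The 15 regulators of mitochondrial biogenesis likewise had 0, and their median was 0.00. *Tfam*, which packages and transcribes mitochondrial DNA, read 4.01, 4.31 and 4.32 in null lungs, against 4.75, 4.31 and 4.29 in WT lungs (difference -0.24, SE 0.164), with WT replicate 1 alone above the rest. The nuclear receptor gene *Esrra* differed by -0.18 (SE 0.129), *Nrf1* by -0.09 and *Gabpa* by 0.08.

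Other energy pathways are set beside the subunit genes without a test of the difference. Of 15 genes of the tricarboxylic acid cycle, 1 was lower at an unadjusted p under 0.05 (6.67%, against 2.96% of all genes) and none higher, with a median of -0.07. It was *Ogdh*, of the 2-oxoglutarate dehydrogenase complex, which read 8.09, 7.88 and 7.91 in null lungs, against 8.10, 8.35 and 8.20 in WT lungs, without overlap (difference -0.26, SE 0.093). *Dlst*, of the same complex, differed by -0.11, and with *Pdha1* (-0.11) these were 3 genes (20.0%) with every null lung below every WT lung. The share was 5.51% of all genes and 9.43% of those above the median signal, where 14 of the 15 lie. The highest null and lowest WT values were 8.09 and 8.10 for *Ogdh* and 7.79 and 7.80 for *Pdha1*. Of 77 mitochondrial ribosomal proteins, none was lower and 2 were higher (2.6%, against 2.46% of all genes), *Mrpl39* by 0.20 and *Mrps18b* by 0.21, with a median of 0.02. Of the 13 genes measured for the glycolysis list 1 was higher (7.69%, against 2.46% of all genes), with a median of 0.12. The 13 include *Pigq* (-0.12), which is not a glycolytic gene and was matched to the listed *Gpi1* through a synonym. The counts, medians and lung averages of this list include it, and they were not computed without it. The higher gene, the aldolase *Aldoc*, read 6.92, 6.94 and 7.29 in null lungs, against 6.65, 6.65 and 6.55 in WT lungs (difference 0.43, SE 0.111, unadjusted p = 0.00392 by limma). The hexokinase *Hk1* differed by 0.12, also without overlap, which made 2 of 13 genes (15.4%). The share was 4.67% of all genes and 2.76% of those above the median signal, where all 13 lie. The list as a whole averaged -0.09, -0.10 and 0.33 in null lungs, against 0.03, -0.09 and -0.08 in WT lungs, so null replicate 3 alone was high, and without it the median was -0.07. The adjusted p of each of these genes was 0.89 or more (limma).

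Markers of other cells and of cell state are given for the levels of the muscle isoforms and of the bright subunit genes. All 15 cardiomyocyte markers were without an unadjusted p under 0.05 (median -0.10), as were the 10 of skeletal muscle (0.04), the 7 of brown fat (0.09) and the 5 erythroid markers measured (0.14). Of 12 pericyte and smooth muscle markers 2 were lower (16.7%, against 2.96% of all genes), *Pdgfrb* by -0.27 and *Notch3* by -0.24. The list averaged -0.03, -0.05 and -0.09 in null lungs, against 0.04, 0.08 and 0.06 in WT lungs. Of the 10 lung markers 1 was lower (10%, against 2.96% of all genes), the endothelial gene *Pecam1* (-0.18). All 10 lung markers, 11 of the 12 pericyte and smooth muscle markers and 16 of the 17 proliferation genes lay above the median signal. In a fit of only the genes above it, 5.35% were lower and 1.51% higher at an unadjusted p under 0.05. All 17 proliferation genes were higher on average (median 0.24), 2 of them, *Cdk1* and *Ccnb2*, at an unadjusted p under 0.05 (11.8%, against 2.46% of all genes). The proliferation list averaged 0.19, -0.15 and 0.32 in null lungs, against 0.17, -0.24 and -0.30 in WT lungs, so that, as for complex V, null replicates 1 and 3 and WT replicate 1 lay above 0 and the other 3 lungs below. The part of these markers in the subunit values was not tested.

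Promoter sequence is shown because the nuclear subunit genes are known targets of NRF1 and GABP. In RefSeq windows of assembly GRCm38.p6, from 250 bases before to 50 bases after a start site, 67 of the 83 genes were matched. The letters GCATGCGC, the core of the NRF1 site, stood on either strand in windows of 10 of the 67 genes (14.9%) and of 3.05% of all 27025 genes in the table. CCGGAAG, the ETS core of the GABP site, stood in those of 17 (25.4%) and of 9.93%, and both stood together in *Sdhb*, *Uqcr11*, *Cox6a1*, *Atp5k* and *Atp5l* (7.46%, against 0.581%). The stretches that span both sets of letters are printed for 1 gene each of complexes II, III and IV and for *Atp5k*, 5′ to 3′ along the gene, with the letters searched in capitals on whichever strand they read (GCGCATGC and CTTCCGG are the same letters on the other strand). They lie at chr4:140961212-140961288 (plus strand), chr10:80406813-80406892 (minus), chr5:115348963-115349125 (minus) and chr5:108434376-108434454 (minus).
Sdhb: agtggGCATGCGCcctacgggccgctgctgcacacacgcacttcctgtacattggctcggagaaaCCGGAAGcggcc
Uqcr11: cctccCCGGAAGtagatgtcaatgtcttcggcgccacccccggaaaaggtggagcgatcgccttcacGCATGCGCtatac
Cox6a1: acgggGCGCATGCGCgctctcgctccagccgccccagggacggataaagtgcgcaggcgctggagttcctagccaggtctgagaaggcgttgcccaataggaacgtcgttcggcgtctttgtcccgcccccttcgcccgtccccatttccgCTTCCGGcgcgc
Atp5k: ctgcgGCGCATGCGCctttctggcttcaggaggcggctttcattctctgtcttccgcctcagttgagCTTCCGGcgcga
The 4 genes gave differences of -0.03 (*Sdhb*), -0.33 (*Uqcr11*), -0.06 (*Cox6a1*) and 0.29 (*Atp5k*), on both sides of 0. The median difference was -0.04 over the 10 genes with the NRF1 letters and 0.02 over the 57 without, and 0.00 over the 17 with the GABP letters and 0.02 over the 50 without. Such matches describe the letters of these windows, not bound sites.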

How the data were processed

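Total RNA of single E18.5 lungs was hybridised to Affymetrix gene arrays. The authors deposited 1 value for each probe set and lung, per the labels on a log2 scale. MAS5 is the tool listed in the submitters' processing notes, with settings that are not given here. Since the log base could not be settled, no fold is given. Array medians lay between 4.98 and 5.03, and the values were used as deposited, with no filter on dim genes.

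Of 35045 probe sets, 21789 had 1 gene symbol, 1621 several and 11635 none here; 21698 were updated by Entrez ID. Where a gene had several, the probe set with the highest mean was used. The 19938 genes were fitted with limma 3.58.1 in R 4.3.3 (lmFit, eBayes with trend, null minus WT, no covariate), with Benjamini-Hochberg adjustment over all genes; the script was tested on simulated data. Lists are described by counts and medians with no test. The labels state that each array holds an individual embryo, and the number of arrays limits the precision.

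The subunit genes, the other lists and the alternatives were chosen with earlier results of these data known. Named with values were, in each complex, the 3 genes with the smallest unadjusted p, isoform genes of a subunit, the catalytic and redox core, of each pathway list the 2 genes with the smallest p, and *Tnrc6a*. *Atp5md*, *Uqcrb*, *Ndufb6*, *Ndufa1*, *Ndufb8*, *Cox7b*, *Cox7b2*, *Pdha1*, *Pigq*, *Nrf1*, *Gabpa* and the markers of other cells were singled out after their values were seen. Alternatives covered normalization, filters, probe set choice, the variance model, array weights, a replicate block, the methods' t-test and lungs left out. Promoter windows were matched by gene ID; protein sequences were not used here.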

Additional observations from a re-analysis of the deposited data

How the results depend on the processing

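With 3 lungs a genotype, counts at an unadjusted threshold moved with most choices. Over all genes, 1 was called; array weights gave 2, the methods' t-test after Benjamini-Hochberg 0, and leaving out a lung 0 to 1 (0 without WT replicate 3). Without both WT replicate 1 and null replicate 3, 23 were called, none of them a subunit gene. At an unadjusted p under 0.05, 1 subunit gene was lower in the main fit (1.20%, all genes 2.96%). There were 0 above the median signal (all genes 5.35%), 2 with array weights (2.41%, all genes 7.07%) and 2 without both lungs (2.41%, all genes 8.74%). Leaving out 1 lung gave 0 to 4. There were 4 without null replicate 1 (4.82%, all genes 2.07%) and 0 without null replicate 2 (all genes 3.52%). Without WT replicate 1, 2 or 3 there were also 0 (all genes 6.44%, 1.10% and 1.39%). Subunit genes higher numbered 2 in the main fit (2.41%, all genes 2.46%) and 2 above the median signal (2.67%, all genes there 1.51%). They were 4 (4.82%) with quantile normalization (all genes 2.01%) or cyclic loess (all genes 2.22%). They were 1 (1.20%) with median centring (all genes 1.58%), eBayes without trend (all genes 3.05%) or the t-test (all genes 2.39%). Array weights gave 5 (6.02%, all genes 5.21%), and the fit without both lungs 7 (8.43%, all genes 5.78%). Leaving out 1 lung gave 1 to 5. The 5 came without null replicate 2 (6.02%, all genes 1.97%). Without null replicate 1 (all genes 1.60%) or WT replicate 3 (all genes 1.96%) there was 1. Genotypes without overlap, lower in null, numbered 1 in the main values (1.20%, all genes 5.51%). They were 2 with median centring (2.41%, all genes 9.16%) and 0 above the median signal (all genes 9.43%). Without both lungs they were 6 (7.23%, all genes 25.3%), and with 1 lung left out 1 to 6 (6 without null replicate 1, 7.23%, all genes 8.53%). Those higher in null numbered 3 in the main values (3.61%, all genes 4.67%). They were 6 with quantile normalization (7.23%, all genes 3.92%), 1 with median centring (1.20%, all genes 2.87%) and 5 with cyclic loess (6.02%, all genes 4.59%). Without both lungs they were 18 (21.7%, all genes 18.2%), and with 1 lung left out 4 to 12 (12 without null replicate 2, 14.5%, all genes 8.04%). Fewer lungs make an overlap less likely by construction. The median of the 83 genes ran from -0.01 to 0.04 with 1 lung left out, and that of complex III from -0.14 to 0.01. Replicate numbers did not pair the lungs (deviations of same-numbered lungs correlated at -0.295, 0.361 and -0.162). With a replicate block in limma, 1 subunit gene was lower (1.20%, all genes 2.15%) and 3 were higher (3.61%, all genes 1.98%) at an unadjusted p under 0.05. The 3 were *Atp5g2*, *Ndufa4l2* and *Ndufa3*, with *Atp5k* at 0.0776. In that fit 1 gene of all was called, and the smallest adjusted p of a subunit gene was 0.95. Of 626 values of 37 named subunit genes under the alternatives, 622 stayed within 1 SD of the main value. The SD is the gene's own spread within a genotype. Many had to stay within it: the variance models, the replicate block, the t-test and the signal filter leave the difference unchanged. Leaving out 1 lung cannot move it by a full SD, so the 622 do not measure stability. The sign changed in 38 values, in 16 genes, and none passed the adjusted threshold. The cause of these shifts was not tested.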
